A study of Mus musculus with 6 samples.

Results

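The genes described here are markers of the macrophage state that depends on the receptor TREM2, known from fat, artery and brain as lipid-associated or disease-associated macrophages. Of 7 genes known as its markers, Trem2, Gpnmb, Lgals3, Cd9 and Fabp5 had probe sets annotated to exactly 1 gene, 8 probe sets in all among the 45037 tested. Spp1 and Cd63 were not analysed here. Expression was measured on Affymetrix mouse arrays in isolated pancreatic islets of 6 mice on standard chow, 1 array per mouse. The sample labels give an age of 12 weeks, and the series' design text gives 10 to 12 weeks. There were 3 wild type mice (replicates 1 to 3) and 3 hIAPP-Tg mice (replicates 4 to 6). The hIAPP-Tg mice carry a transgene for human islet amyloid polypeptide (IAPP), and the strain label of both genotypes, FVB/N-Tg(Ins2-IAPP)RFHSoel/J, names an insulin promoter (Ins2), which is active in beta cells. The level of the human transgene was not analysed here, so the genotypes rest on the labels. The titles number the mice separately, and the labels used here give neither sex nor litter.

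TREM2 is a surface receptor of macrophages and microglia that binds lipids, lipoproteins and amyloid, and it signals through the adaptor TYROBP (DAP12) and the kinase SYK. Macrophages in this state take up lipid and cell debris and express genes of lysosomes, lipid binding and adhesion. IAPP is secreted with insulin, and the human form aggregates into islet amyloid. The question put to the arrays is which transcripts of the islet differ with the transgene. All values are deposited log2 RMA values, differences are hIAPP-Tg minus wild type, and errors are SD with n = 3 mice per genotype.

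In RefSeq (GRCm38.p6) Trem2 lies at chr17:48346401-48352276, Lgals3 at chr14:47373860-47386167, Gpnmb at chr6:49036518-49058182, Cd9 at chr6:125460266-125494760 and Fabp5 at chr3:10012585-10016610. The promoters of the 3 members with the largest differences are shown with that of Gpnmb, whose difference had the other sign, so that the start regions can be read side by side. Each is the stretch of 250 bases before the gene's start in RefSeq (GRCm38.p6), read 5′ to 3′ along the gene, and capitals mark a match to a searched motif.
Trem2, chr17:48346151-48346400, plus strand: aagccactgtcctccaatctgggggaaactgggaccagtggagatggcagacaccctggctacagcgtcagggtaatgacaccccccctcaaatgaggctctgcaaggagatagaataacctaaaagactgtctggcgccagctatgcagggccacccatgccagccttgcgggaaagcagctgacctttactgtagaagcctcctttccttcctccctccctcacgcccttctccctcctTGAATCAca
Lgals3, chr14:47373610-47373859, plus strand: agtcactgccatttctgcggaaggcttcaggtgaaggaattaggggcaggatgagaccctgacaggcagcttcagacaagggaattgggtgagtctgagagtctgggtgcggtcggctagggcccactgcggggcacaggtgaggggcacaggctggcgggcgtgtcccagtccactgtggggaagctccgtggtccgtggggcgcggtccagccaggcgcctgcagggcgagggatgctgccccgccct
Cd9, chr6:125494761-125495010, minus strand: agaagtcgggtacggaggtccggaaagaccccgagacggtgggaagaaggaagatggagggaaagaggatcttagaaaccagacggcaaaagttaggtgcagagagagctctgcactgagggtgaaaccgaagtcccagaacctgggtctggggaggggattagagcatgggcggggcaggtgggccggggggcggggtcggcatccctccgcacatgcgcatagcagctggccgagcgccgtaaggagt
Gpnmb, chr6:49036268-49036517, plus strand: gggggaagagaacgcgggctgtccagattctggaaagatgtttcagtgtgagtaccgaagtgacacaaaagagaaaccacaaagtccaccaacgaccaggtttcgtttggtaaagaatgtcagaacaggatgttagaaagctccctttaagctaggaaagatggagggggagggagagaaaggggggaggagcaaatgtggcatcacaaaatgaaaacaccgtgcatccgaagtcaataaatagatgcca
The motifs searched on both strands were GAGGAAGT (ETS factors such as PU.1), CACGTG (E-box of the MITF and TFE family), TCATGTG (M-box of MITF), TGANTCA (AP-1) and TATAAA (a core promoter element). Of these promoters, Trem2 alone held a match, TGAATCA, starting 9 bases before the start. It matches TGANTCA, in which N is any base, and binding of AP-1 to it was not tested. Of all 32851 promoters, 6.75% held TGANTCA, 2.44% GAGGAAGT, 6.02% CACGTG, 3.25% TCATGTG and 12.4% TATAAA. Promoter sequences in the table were found for 6 of the 7 members, all but Fabp5.

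Of the measured members, Lgals3, Trem2, Cd9 and Fabp5 were higher in hIAPP-Tg islets on their brightest probe set, with no overlap between the genotypes, and Gpnmb was not. None of the 8 probe sets passed the test across all probe sets (limma with Benjamini-Hochberg adjustment, threshold 0.05), which 0.0289% of all probe sets passed. At an unadjusted limma p under 0.05, 4 of the 8 were higher in hIAPP-Tg islets, against 3.82% of all probe sets, and 0 were lower. The genotypes did not overlap, with hIAPP-Tg higher, for these 4 probe sets, against 3.44% of all probe sets. The median difference over the 5 measured members was 0.70, or 0.33 with each gene's probe sets averaged, and over all probe sets it was 0. With 3 mice against 3, an exact permutation test of a single gene cannot give a two-sided p below 0.10, which these 4 probe sets reached. Since the transcripts were measured in whole islets, more cells of a type and more RNA per cell cannot be told apart.

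**Figure D1:**
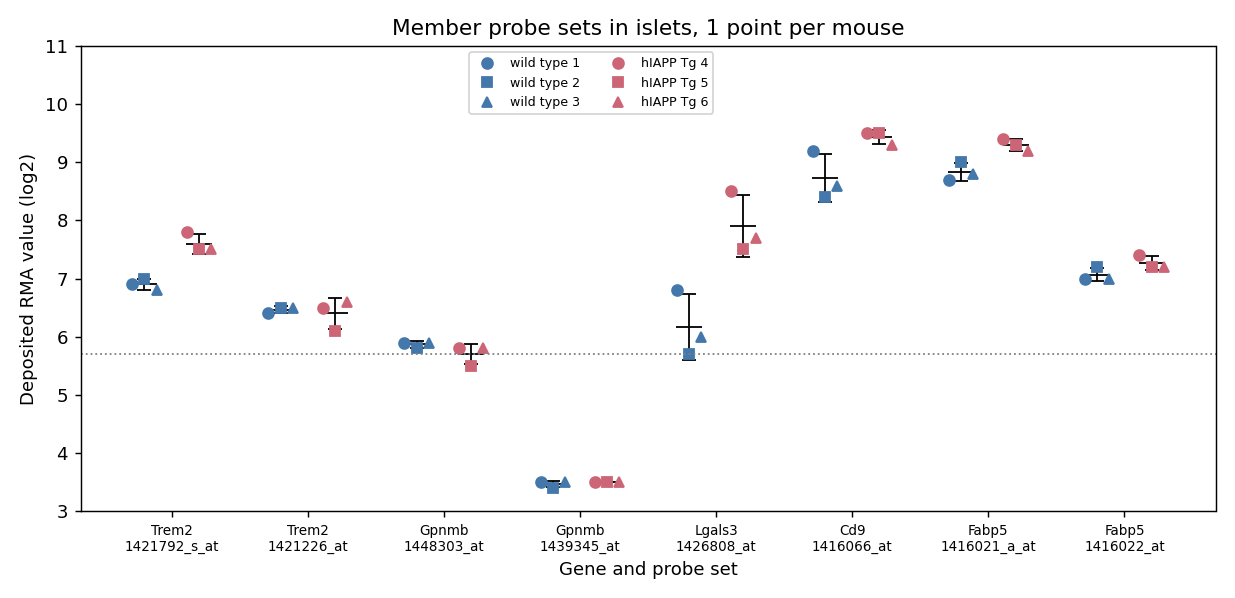
Deposited log2 RMA values (y axis) of the 8 member probe sets (x axis) in each of 6 mice, with black bars for the mean and SD of 3 mice and a dotted line at the median of all values, 5.7. The hIAPP-Tg points lie above all wild type points for Lgals3, Cd9, the brighter Trem2 and the brighter Fabp5 probe set, and the genotypes overlap for the other 4.

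Trem2 itself read differently on its 2 probe sets. The brighter one, 1421792_s_at, stood at 6.9, 7.0 and 6.8 on the wild type arrays and at 7.8, 7.5 and 7.5 on the hIAPP-Tg arrays. Every hIAPP-Tg mouse lay at least 0.5 above every wild type mouse. The means were 6.90 ± 0.10 and 7.60 ± 0.17, a difference of 0.70 (SE 0.10, 95% interval 0.45 to 0.95), or 1.62-fold, with a limma adjusted p of 0.258. The dimmer probe set, 1421226_at, stood at 6.4, 6.5 and 6.5 against 6.5, 6.1 and 6.6. Here the genotypes overlapped, and the difference was -0.067 (SE 0.13, 95% interval -0.39 to 0.26, limma adjusted p = 0.908). The gap between the probe sets within an array was 0.5, 0.5 and 0.3 in wild type and 1.3, 1.4 and 0.9 in hIAPP-Tg islets. It did not overlap between the genotypes and had the smallest p the exact permutation test allows (two-sided, p = 0.10). RefSeq lists 2 transcripts of mouse Trem2, and the suffix _s marks probe sets whose probes can match several transcripts. Which transcripts each probe set reads, of Trem2 or of another gene, was not analysed here. With the probe sets averaged, the difference was 0.32.

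Lgals3 encodes galectin-3, a lectin that macrophages secrete and that also gathers at damaged lysosomes, and it had the largest difference of the members. Its 1 probe set, 1426808_at, stood at 6.8, 5.7 and 6.0 in wild type and at 8.5, 7.5 and 7.7 in hIAPP-Tg islets. Wild type replicate 1 and hIAPP-Tg replicate 4 were the highest of their genotypes, and the lowest hIAPP-Tg mouse lay 0.7 above the highest wild type mouse. The means were 6.17 ± 0.57 and 7.90 ± 0.53, a difference of 1.73 (SE 0.36, 95% interval 0.86 to 2.61), or 3.32-fold, with a limma adjusted p of 0.419. Leaving out each array in turn gave 1.43 to 2.05.

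Cd9, a tetraspanin that organises other proteins in the plasma membrane, stood at 9.2, 8.4 and 8.6 in wild type and at 9.5, 9.5 and 9.3 in hIAPP-Tg islets. The genotypes were separated by 0.1 only, the rounding step of the table, wild type replicate 1 being the highest wild type value. The difference was 0.70 (8.73 ± 0.42 against 9.43 ± 0.12, SE 0.21, 95% interval 0.20 to 1.20, limma adjusted p = 0.552). It was 0.93 without wild type replicate 1 and 0.53 without wild type replicate 2.

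Fabp5 encodes a fatty acid binding protein of the cytosol that carries lipid to enzymes and nuclear receptors. The brighter probe set, 1416021_a_at, stood at 8.7, 9.0 and 8.8 in wild type and at 9.4, 9.3 and 9.2 in hIAPP-Tg islets, without overlap. Its difference of 0.47 (8.83 ± 0.15 against 9.30 ± 0.10, SE 0.098, 95% interval 0.23 to 0.70, limma adjusted p = 0.419) was smaller than those of Lgals3, Trem2 and Cd9. The dimmer probe set, 1416022_at, stood at 7.0, 7.2 and 7.0 against 7.4, 7.2 and 7.2. The genotypes met at 7.2, and the probe set differed by 0.20 (SE 0.090, 95% interval -0.019 to 0.42, limma adjusted p = 0.632). The gap between the probe sets was 1.7, 1.8 and 1.8 in wild type and 2.0, 2.1 and 2.0 in hIAPP-Tg islets, again without overlap.

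Gpnmb, a membrane glycoprotein induced in lipid-loaded macrophages under the lysosomal stress factors MITF and TFE3, was not higher in hIAPP-Tg islets. Its brighter probe set, 1448303_at, stood at 5.9, 5.8 and 5.9 in wild type and at 5.8, 5.5 and 5.8 in hIAPP-Tg islets. These levels lie near the array median of 5.7, and the difference was -0.17 (5.87 ± 0.058 against 5.70 ± 0.17, SE 0.098, limma adjusted p = 0.711). Its 95% interval was -0.40 to 0.071, and the difference was -0.067 without hIAPP-Tg replicate 5. The other probe set, 1439345_at, was at 3.5, 3.4 and 3.5 against 3.5 on all hIAPP-Tg arrays (difference 0.033, limma adjusted p = 0.908), close to the lowest value of the table, 2.9. The gap between the Gpnmb probe sets was 2.4 on all wild type arrays and 2.3, 2 and 2.3 in hIAPP-Tg islets. It did not overlap either, but was smaller in hIAPP-Tg islets, unlike the gaps of Trem2 and Fabp5. How often such gaps separate the genotypes over all genes was not analysed. Both probe sets of Gpnmb are dim and not known to lie above background, so a low level of Gpnmb could go unseen here.

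The islets also differed in their macrophage markers. Of 18 macrophage markers 17 were measured, and 12 were higher at an unadjusted p under 0.05 and 0 lower. On the brightest probe set of each gene, 5.02% of all genes were higher at this p and 3.46% lower. Their mean level per array was 7.06 to 7.19 in wild type and 7.92 to 8.08 in hIAPP-Tg islets, and the median difference was 0.73. Only 2 of the 17 had a mean under the array median. Mpeg1, which encodes a pore-forming protein of phagocytes, passed the test across all probe sets (7.4, 7.3 and 7.4 against 9.0, 8.8 and 9.0, limma adjusted p = 0.00683), as did 0.044% of genes. It did not pass with the acinar covariate (limma adjusted p = 0.0516) or without any 1 array other than hIAPP-Tg replicate 5, with differences of 1.53 to 1.63 across the arrays left out. Among the others, the lysozyme gene Lyz2 differed by 2.47, the phagosomal marker gene Cd68 by 1.90 and the cathepsin gene Ctss, the brightest of the list, by 1.13. The macrophage markers Itgam, Lst1, Fcgr1, Cd14 and Fcer1g overlapped between the genotypes, with differences of 0.17, 0.23, 0.067, 0.067 and -0.033. No member is on this list.

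Set against these markers, the members differed among themselves. After subtracting each array's mean over the 17 macrophage markers, Lgals3 was still higher in hIAPP-Tg islets, by 0.85 (95% interval 0.17 to 1.54, limma), but wild type replicate 1 overlapped the hIAPP-Tg range (two-sided exact permutation p = 0.20). The brighter Trem2 probe set and Cd9 each differed by -0.18, with 95% intervals of -0.47 to 0.11 and -0.58 to 0.23 that include 0. The subtraction lowers every probe set's difference alike, so that the median over all probe sets became -0.88 and 99.2% of them passed the adjusted threshold, and a pass or a lack of overlap there carries no information on the members. The value of a probe set with no difference, -0.88, lies inside the intervals of both Gpnmb probe sets (-1.05 and -0.85), of the dimmer Trem2 probe set (-0.95) and of the dimmer Fabp5 probe set (-0.68). The brighter Fabp5 probe set stood between that value and the markers, at -0.41 (95% interval -0.68 to -0.14). A difference from the markers shows unequal change, not a level per macrophage, and members such as Cd9 are known to be expressed by other cells too. The part of the macrophage markers in the members' differences was not tested.

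**Figure D2:**
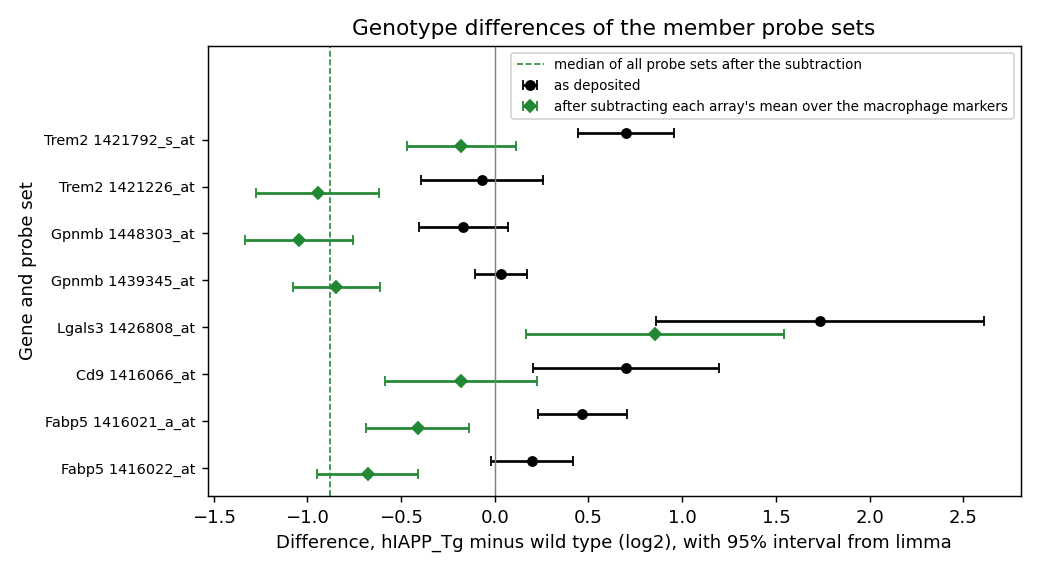
Difference between genotypes on the log2 scale (x axis) with 95% intervals from limma for the 8 member probe sets (y axis), as deposited (black circles) and after subtracting each array's mean over 17 macrophage markers (green diamonds). The dashed line marks the median of all probe sets after the subtraction, -0.88. Lgals3 stays above 0 in both, at 1.73 and 0.85, while the brighter Trem2 probe set and Cd9 go from 0.70 to -0.18.

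Markers of other cells that can express the members were examined next. Duct cells express Lgals3 and Cd9, and the mean over 18 duct markers was 7.91 to 7.93 in wild type and 7.87 to 7.99 in hIAPP-Tg islets, with 2 markers higher and 2 lower at an unadjusted p under 0.05. The keratin gene Krt7 differed by 0.33 and the adhesion gene Epcam by 0.17, while the secreted protein genes Ambp and Wfdc2 differed by -0.33 and -0.23. With the duct mean as a covariate, the differences of Lgals3, Cd9 and the brighter probe sets of Trem2 and Fabp5 were 1.70, 0.70, 0.68 and 0.45. Stellate and fibroblast markers (12 measured) were highest on wild type replicate 1, at 8.70 against 8.05 and 8.04 on the other wild type arrays and 8.12 to 8.34 on the hIAPP-Tg arrays. The same mouse had the highest wild type values of Lgals3 and Cd9. With the stellate mean as a covariate, chosen once the levels were known, the 4 differences were 1.81, 0.75, 0.71 and 0.46. Of the stellate markers, 2 were higher and 1 lower at an unadjusted p under 0.05, Acta2 by 0.60, Pdgfrb by 0.43 and Lum by -0.50. Over all genes 5.02% were higher and 3.46% lower at this p. The duct and stellate means, in which opposite differences cancel, differed between the genotypes by 0.011 and -0.047 only. Neither covariate could therefore move the 4 differences much, and the part of duct and stellate cells in them was not tested. Acinar markers (17 measured) were at 10.39, 11.72 and 12.02 in wild type and 11.46, 9.22 and 10.65 in hIAPP-Tg islets, and with their mean as a covariate the 4 differences were 1.77, 0.54, 0.76 and 0.52. The mean of 12 endothelial markers was 7.68 to 7.82 in wild type and 7.55 to 7.67 in hIAPP-Tg islets, with 0 higher and 4 lower at an unadjusted p under 0.05. That of 8 Schwann cell markers was 6.45 to 6.53 and 6.60 to 6.64, with 1 higher and 0 lower, and the part of these lists in the results was not tested. Markers of lymphocytes and adipocytes overlapped in their means, and those of neutrophils too, apart from hIAPP-Tg replicate 5, which stood at 5.59 against 5.03 to 5.15 in wild type. Beta-cell markers marked all samples as islets, with means of 12.66 to 12.8 in wild type and 12.5 to 12.7 in hIAPP-Tg islets and Ins2 at the table's top value, 15.1, on every array.

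**Figure D3:**
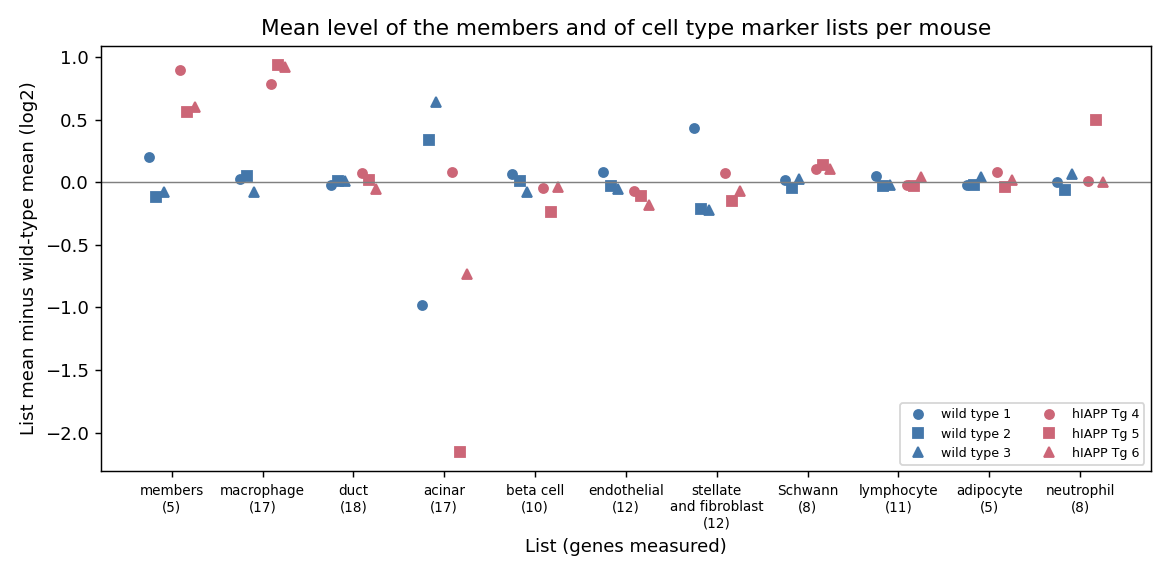
Mean level of the measured members and of 10 cell type marker lists on each array, minus that list's wild type mean (y axis, log2), with 1 point per mouse. The means of the members, macrophage markers and Schwann cell markers are higher in all hIAPP-Tg mice, and that of endothelial markers is lower. Acinar markers spread widely in both genotypes, and wild type replicate 1 is highest in stellate and fibroblast markers.

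The TREM2 signalling list holds partners of the receptor and the proteases Adam10 and Adam17, which cleave it. Of 11 measured genes 5 were higher and 0 lower at an unadjusted p under 0.05, against 5.02% and 3.46% of all genes. Against 0.044% of all genes, 1 of the 11 passed across all probe sets. That gene was Tyrobp, the adaptor of TREM2 and of other myeloid receptors, at 7.3, 7.2 and 7.2 in wild type and 8.8, 8.5 and 8.9 in hIAPP-Tg islets (limma adjusted p = 0.0271). It did not pass without moderation, with the acinar, duct or stellate markers as a covariate, or without any single array, with differences of 1.42 to 1.62 in these settings. The kinase gene Syk (5.47 ± 0.058 to 5.83 ± 0.12), the phospholipase gene Plcg2 (7.0 on all wild type arrays to 7.37 ± 0.15) and the kinase gene Btk (4.80 ± 0.10 to 5.17 ± 0.21) each differed by 0.37. None of these 3 passed across all probe sets. The probe sets of Syk, 4 in all, ran from -0.067 to 0.37. Syk lay near the array median and Btk under it.

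Of 40 other genes of the state, 38 were measured. None passed across all probe sets, and the median difference was 0.18. At an unadjusted p under 0.05, 17 were higher and 1 lower, against 5.02% and 3.46% of all genes. The list was written with earlier results of these data known, and Cd68 stands on the macrophage list as well. Among lipid genes, Apoe, which encodes a lipoprotein ligand of TREM2, stood at 10.4, 9.9 and 9.7 in wild type and 11.2, 11.4 and 11.4 in hIAPP-Tg islets (difference 1.33, limma adjusted p = 0.182). Lipa, which encodes the acid lipase of lysosomes, went from 7.67 ± 0.058 to 8.20 on all hIAPP-Tg arrays (0.53, limma adjusted p = 0.0924), and its 3 probe sets ran from 0.10 to 0.53. In the other direction, Lpl, the lipoprotein lipase gene and a hallmark of the state in brain and fat, was lower in every hIAPP-Tg mouse. It stood at 11.2, 10.9 and 11 against 11.5, 11.8 and 11.8 in wild type (difference -0.67, limma adjusted p = 0.318). These levels lie above the macrophage markers' mean per array, 7.06 to 8.08, but single markers of that list reached similar levels in hIAPP-Tg islets. Lyz2 stood at 10.8 to 11.5 there and Ctss at 11 to 11.4, against 8.4 to 8.9 and 10 to 10.3 in wild type. Such levels cannot show which cells express a gene. Which islet cells account for the Lpl level was not tested. The lipid droplet coat gene Plin2 differed by 0.33 with overlap, wild type replicate 1 standing at 9.3, and Fabp4, a fatty acid carrier of fat cells and macrophages, by -0.17.

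Among lysosomal proteases of the list, the cathepsin gene Ctsd differed by 0.57, and the cathepsin genes Ctsb and Ctsz and the legumain gene Lgmn by 0.53 each. The cathepsin gene Ctsl differed by 0.37. The probe sets of Ctsb ran from 0.23 to 0.93, those of Ctsz from 0.33 to 0.53 and those of Ctsl from 0.20 to 0.37. The surface receptors of the list were uneven, with the lipid scavenger receptor gene Cd36 at a difference of -0.13. Clec7a, which encodes the glucan receptor dectin-1, stood at 5.4, 5.3 and 5.4 against 6.3, 5.7 and 6.2, a difference of 0.70 from a wild type level under the array median. Axl, a receptor for dying cells, differed by 0.50 (6.5 ± 0.17 against 7.0 on all hIAPP-Tg arrays, with 0.13 on its other probe set) and the integrin gene Itgax by 0.47 (5.97 ± 0.15 against 6.43 ± 0.15). The cystatin gene Cst7, much induced in microglia of this state, differed by 0.17 at levels of 4.6 to 4.9, under the array median. Igf1, a growth factor of the state, differed by -0.20. The elastase gene Mmp12 was at 5.7 on all wild type arrays and spread over 6.7, 5.3 and 6.0 in hIAPP-Tg islets, with replicate 4, the mouse highest in Lgals3, at the top.

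Genes of resident or homeostatic macrophages were not lower as a group in whole islets. Of 17 measured, 5 were higher and 0 lower at an unadjusted p under 0.05, against 5.02% and 3.46% of all genes. The median difference of the 17 was 0.13, against 0.73 for the macrophage markers. The orphan receptor gene Gpr34 was at 3.9, 4.1 and 3.8 against 5.2, 5.4 and 5.1 (difference 1.30, limma adjusted p = 0.0516), all under the array median. It passed with quantile normalization, an intensity trend, a robust prior, array weights or averaged probe sets. Gpr34 also passed with centring on the macrophage markers, but 99.2% of all probe sets did, so that pass carries no information. The fractalkine receptor gene Cx3cr1 differed by 0.43 on its brighter probe set and by 0.10 on the other. The engulfment receptor gene Mertk differed by 0.33, or by 0.20 without hIAPP-Tg replicate 6. Mrc1, the mannose receptor gene, lay under the array median at 4.4 to 4.7 in both genotypes and differed by -0.13. Of the 4 genes for MITF and TFE factors, 0 were higher or lower at this p, and their differences ran from -0.067 to 0.10.

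Of 10 other tetraspanins, 6 were higher and 0 lower at an unadjusted p under 0.05, against 5.02% and 3.46% of all genes. The median difference of the 10 was 0.30. The leukocyte tetraspanin Cd53 stood at 6.4, 6.5 and 6.8 against 7.9, 7.7 and 7.5 (difference 1.13, limma adjusted p = 0.15), though its second probe set differed by 0.067. Tspan4, a tetraspanin of migrating cells, differed by 0.90 and the widely expressed Cd81 by 0.37. Among 7 other galectins Lgals1 alone was higher at this p, at 8.6, 8.0 and 8.1 against 9.2, 8.7 and 8.8, again with wild type replicate 1 and hIAPP-Tg replicate 4 highest, while the other 6 differed by -0.17 to 0.10. Among 9 other fatty acid binding proteins, Fabp3 of muscle was higher by 0.50 (0.13 on its other probe set), and Fabp12 by 0.20 at levels near 5. Fabp7, a brain and glial form, was lower by -1.40, at 7.8, 7.4 and 7.8 against 6.2, 5.6 and 7.0 (limma adjusted p = 0.503). Of 5 other TREM family genes, 0 passed an unadjusted p of 0.05, Treml1 differed by 0.13 and Treml4 by -0.23.

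Receptors for galectin-3, osteopontin and related ligands (integrins, a syndecan, CD44 and a scavenger receptor) had a median difference near 0. Of 9 measured, 2 were higher and 0 lower at an unadjusted p under 0.05, against 5.02% and 3.46% of all genes. The median difference of the 9 was -0.033. The hyaluronan and osteopontin receptor gene Cd44 differed by 0.40 (7.13 ± 0.15 against 7.53 ± 0.15), with probe sets from 0 to 0.57. The integrin gene Itgb5 differed by 0.27. The scavenger receptor gene Msr1 differed by 0.10 on its brightest probe set. Its 4 probe sets ran from 0.033 to 0.57, with 2 higher at an unadjusted limma p under 0.05. Of 5 relatives of Spp1 and Gpnmb, 0 passed an unadjusted p of 0.05, with a median of -0.067.

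**Figure D4:**
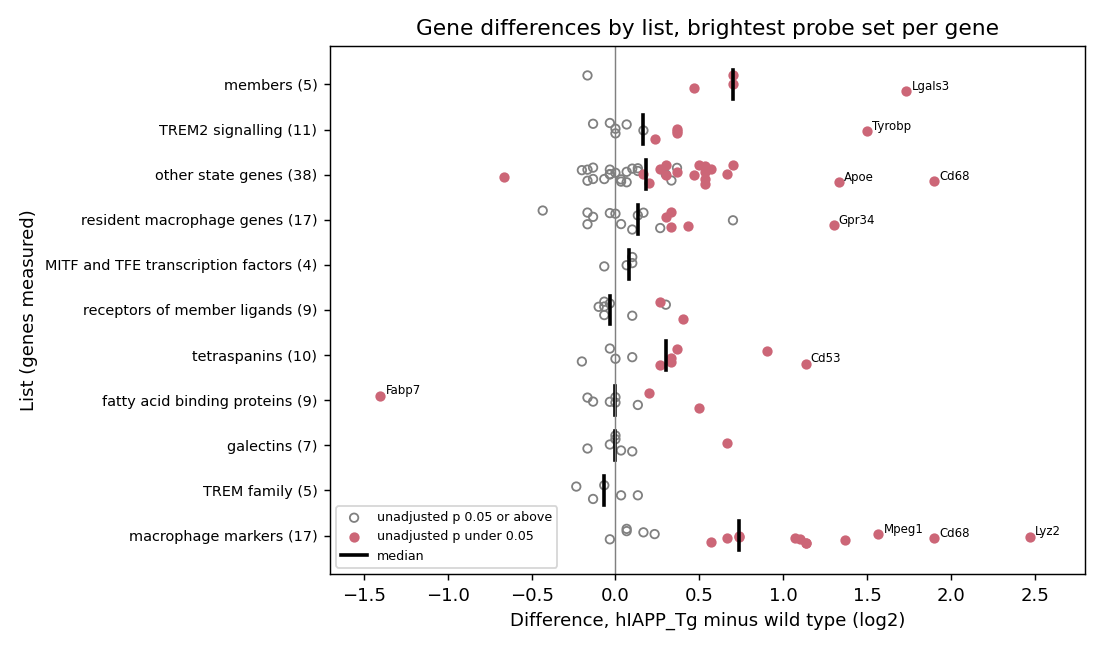
Difference between genotypes (x axis, log2) of each gene on its brightest probe set, by list (y axis, with the number of genes measured), filled where the unadjusted limma p was under 0.05, with black bars at list medians. Genes beyond 1 in either direction are named, on the macrophage list those beyond 1.5. The medians are 0.70 for the members, 0.30 for other tetraspanins and 0.73 for macrophage markers.

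The genes nearest to each member in pattern were found by the root mean square difference (RMS) of values centred on their own mean over the 6 arrays. Nearest to the brighter Trem2 probe set were the glutathione transferase gene Gstt2 and the tachykinin gene Tac1 (RMS 0.10 each), then the cathepsin gene Ctsb, tied with Ergic3 and Wee1 (0.11 each). Nearest to Lgals3 were Rgs2, a regulator of G protein signalling (0.25), Cd68 (0.35) and the neuropeptide gene Vip (0.37). Rgs2 also stood highest in wild type replicate 1 and hIAPP-Tg replicate 4 among its genotypes, at 9.0 and 10.3. For Cd9 they were Klf9, Stmn2 (0.11 each) and the cathepsin gene Ctsc (0.11), and for Fabp5 they were Cotl1 (0.047), Slc25a32 (0.058) and Hsd17b11, tied with Lpgat1 (0.069 each). For Gpnmb, Folr2 and Ifi47 had identical patterns at this rounding (0), and 34 genes lay within 0.037.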

How the data were processed

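Per the labels, islet RNA was extracted with Trizol, and 150 ng per mouse went into biotinylated cRNA. The authors deposited log2 values; the submitters' processing notes name RMA and affy. Versions were not given in the sources used here. Values run from 2.9 to 15.1 in steps of 0.1, and RMA makes array distributions alike and compresses differences near both ends. An array has no read depth, so the number of arrays limits precision.

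Control probe sets (64) were left out. Gene symbols came from the platform annotation, looked up in RefSeq (GRCm38.p6): 34945 probe sets had 1 symbol, 932 several and 9160 none here. Each of 45037 probe sets was compared by genotype alone in limma 3.58.1 (R 4.3.3; lmFit, then eBayes; two-sided; Benjamini-Hochberg adjustment over all), after checks on simulated data. Replicate numbers differ between the genotypes, so nothing was paired. In lists, a gene was represented by its brightest probe set.

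The members and the 10 gene and 10 marker lists were chosen with earlier results of these data known. From each list up to 3 genes per direction without overlap were named by size, besides any that passed and, of marker lists, the gene with the highest mean; of the marker lists a subset of these is named. Single values were compared by exact permutation of the mice, two-sided. Ctsd, Ctsb, Ctsz, Lgmn, Cd36, Lipa, Axl, Itgax, Cst7, Plin2, Igf1, Mmp12, Syk, Fabp4 and Mrc1 were named after their values were seen. So were Itgam, Lst1, Fcgr1, Cd14, Fcer1g, Msr1, Acta2, Lum and Ctsl. Alternatives were other normalizations, filters, priors and weights, averaged probe sets, marker covariates, centring on macrophage markers and leaving out each array. Figures were drawn with matplotlib 3.10.9.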

Additional observations from a re-analysis of the deposited data

How the results depend on the processing

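No member probe set passed an adjusted p of 0.05 under any alternative other than centring on the macrophage markers, and adjusted p over those alternatives ran from 0.0949 to 1. Leaving out each array gave 0 member probe sets past that threshold, 3 to 4 higher at an unadjusted p under 0.05, a member median of 0.55 to 0.75 and 0 other state genes past the threshold. In all, 13 probe sets passed, against 30 with quantile normalization, 51 with a robust prior, 26 with array weights, 128 without moderation, 3 with the acinar and 5 with the stellate covariate, and 1 to 4 with an array left out. Of the other state genes 2 passed with a robust prior and 1 without moderation. The cause of these shifts was not tested. With averaged probe sets the member median was 0.33, which takes in the dimmer probe sets. The dimmer Trem2 probe set then has the gene mean, 0.32, in place of -0.067, and the dimmer Gpnmb one -0.067 in place of 0.033. The former was also at 0.072 with the acinar covariate and ran from -0.17 to 0.083 with an array left out. Mmp12 ran from -0.05 to 0.65 there.

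Centring on the macrophage markers subtracts their mean difference from every probe set by construction, so 44660 probe sets passed (99.2%), 6 of the members and 35 of the other state genes, and 1 member probe set was higher at an unadjusted p under 0.05. The member median was -0.18. Any difference between 0 and 0.88, the mean difference of the markers, turns sign by this subtraction. A turn therefore shows only a difference smaller than that of the markers. The dimmer Gpnmb probe set was at -0.85. Besides it and the other members given above, the sign turned for Clec7a (-0.18), Lgals1 (-0.21), Ctsd (-0.31), Lipa, Ctsb, Ctsz and Lgmn (-0.35), Fabp3 and Axl (-0.38), Itgax (-0.41), Cx3cr1 (-0.45), Cd44 (-0.48), Plcg2, Btk, Syk and Cd81 (-0.51), Mertk, Plin2 and Krt7 (-0.55), Mmp12 (-0.58), Itgb5 (-0.61), Fabp12 (-0.68), Epcam and Cst7 (-0.71) and Treml1 (-0.75).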
